A study of Mus musculus with 8 samples.

Results

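Rprm, Akap7, Kitl, Hs3st4 and Crym are 5 of the 27998 genes in a single-cell count matrix of mouse cortical neurons, and they are described here by their level and their detection together in single cells. The members were chosen by measured values of these same cells, as leading or marker genes of a deep-layer cluster in an earlier look at the data. A high level in deep-layer cells, and a tendency to be found together, were therefore partly set by that choice and are given as a description.

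Cells positive for Ebf2-EGFP were isolated with FACS at E15.5 from cerebral cortex of the mouse strain Tg(Ebf2-EGFP)FB58Gsat. In this transgenic line EGFP follows the activity of the Ebf2 promoter, and about 8 embryos from 2 timed pregnant mice were pooled. The labels list 8 samples of this 1 group, with no EGFP-negative or other group, and they share 1 matrix in which the sample of a cell is not recorded. The data are thus 1 pooled library with no replicates and no test was possible. Intervals are given at 95% and cover only the error of counting.

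A barcode marks the RNA of a captured cell, and a UMI (unique molecular identifier) marks a captured transcript. Of 3000 barcodes, the 2513 with at most 25000 UMIs were used, with a median of 14976 UMIs. Levels are counts per 1000000 UMIs of the summed barcodes (CPM). Shares of barcodes with a UMI were read after every barcode was thinned to 10000 UMIs, which all of them exceeded. Of the 487 barcodes above the limit, 27.3% held both Xist and Y-linked UMIs, against 1.03% of those used, and 1 used barcode drew 85.3% of its UMIs from haemoglobin genes. Ebf2 itself, whose promoter drives the EGFP, had 6.04 CPM and was found in 4.34% of the barcodes used, and Reln was found in 54.95%.

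Layer 6 of the cortex holds early-born corticothalamic neurons, which send axons to the thalamus and lie above the subplate. Foxp2 is a forkhead transcription factor of layer 6 neurons. Fezf2 is a transcription factor that directs subcerebral and other deep-layer fates, and the nuclear receptor Nr4a2 marks subplate and early deep-layer cells. Reln encodes the secreted protein Reelin, which Cajal-Retzius (CR) neurons of layer 1 make in quantity.

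The members act in unrelated processes. Rprm encodes Reprimo, a p53-induced protein linked to arrest of the cell cycle, and is used as a layer 6 marker. Kitl encodes stem cell factor, the ligand of the receptor tyrosine kinase Kit. Akap7 encodes an anchoring protein for protein kinase A. Hs3st4 encodes an enzyme that adds sulfate to heparan sulfate chains, and Crym encodes mu-crystallin, which binds thyroid hormone in the cytosol.

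All members are protein-coding genes in the GENCODE annotation of GRCm38, the assembly that UCSC calls mm10. Rprm lies on the minus strand at chr2:54084093-54085552, a span its exon covers in full. Kitl lies on the plus strand at chr10:100015630-100100416. Akap7 lies on the minus strand at chr10:25169090-25307870, Hs3st4 on the plus strand at chr7:123982869-124398989 and Crym on the minus strand at chr7:120186380-120202111. An annotated antisense gene, Gm27040, overlaps an exon of Hs3st4. It had 188 UMIs, and the strand setting of the counting was not stated.

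RefSeq promoter windows on GRCm38.p6 were matched for 4 of the 5 members. They are shown because these genes varied together in the cells described below, and because a reader may wish to compare their start sites. Each run covers 60 bases before to 20 bases from the annotated start, on the strand of the gene, and capitals mark the letters TATAAA.
Rprm, chr2:54085533-54085612: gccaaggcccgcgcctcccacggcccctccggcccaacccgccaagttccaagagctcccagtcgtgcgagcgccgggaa
Kitl, chr10:100015761-100015840: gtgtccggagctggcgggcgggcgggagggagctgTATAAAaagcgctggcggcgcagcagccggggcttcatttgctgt
Akap7, upstream start, chr10:25297060-25297139: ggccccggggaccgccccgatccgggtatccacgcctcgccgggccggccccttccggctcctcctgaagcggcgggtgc
Akap7, downstream start, chr10:25200130-25200209: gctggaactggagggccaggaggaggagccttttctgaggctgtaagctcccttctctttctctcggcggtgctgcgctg
Hs3st4, chr7:123982768-123982847: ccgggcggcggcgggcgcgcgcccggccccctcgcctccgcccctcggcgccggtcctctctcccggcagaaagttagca

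Over the full windows of 300 bases (250 before to 50 from the start), the GC content was 63.3% for Rprm, 68.7% for Kitl, 68.7% and 57.7% for the upstream and downstream starts of Akap7, and 79.3% for Hs3st4. The median over 32851 windows was 52.7%, and the Hs3st4 window was at or above 98.8% of them. The 3 motifs searched on both strands had no match in any of the 5 member windows. They were a forkhead motif, TGTTTAC, found in 3.65% of all windows, a T-box motif, AGGTGTGA, found in 1.28%, and a SOX motif, AACAAT, found in 10.7%. The letters TATAAA, searched after the windows had been read, were in the Kitl window at positions -25 to -20 from the start and in 13.6% of all windows. A match or its absence describes these letters only.

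Clusters were rebuilt without the 5 members and the 4 level genes, so that none of them decided where a barcode fell. Rprm, Akap7, Kitl and Hs3st4 were at their highest in a cluster of 623 barcodes that was layer 6 corticothalamic-like, with 7 of its 12 fixed markers at least 2-fold above the other barcodes, among them Tle4, Ntsr1 and Wnt7b. They were next in a subplate-like cluster, except Rprm, and lowest in CR-like or Rnd2-led barcodes. Crym did not share this order. These orders cover the 7 clusters of at least 50 barcodes, and leave out a Hmgb2-led cluster of 16. Some markers were shared. Tle4 and Ntsr1 also passed 2-fold in the subplate-like cluster, and the subplate marker Nr4a2 passed it in the layer 6 corticothalamic-like cluster. Foxp2, itself a level gene, was among the 7 layer 6 markers that passed there.

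Rprm stood at 1520 CPM in the layer 6 corticothalamic-like cluster (interval 1495 to 1546). A layer 5-like cluster of 693 barcodes, led by Fezf2, Ldb2 and Bcl11b among others, had 725 CPM, and the subplate-like cluster of 310 barcodes had 703 (interval 679 to 727), which overlaps the layer 5-like interval. Below these came a Neurod1-led cluster at 634 CPM, a Snhg11-led cluster at 482, a Rnd2-led cluster at 280 and the CR-like cluster at 102. The Rnd2-led cluster had 5 of 8 upper-layer markers past 2-fold but none among its leading genes, and it was left unnamed.

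Akap7 had 152 CPM in the layer 6 corticothalamic-like cluster (interval 144 to 160) and 89.0 in the subplate-like cluster. It stood at 43.7 CPM in Snhg11-led, 31.1 in CR-like, 28.7 in layer 5-like and 20.1 in Neurod1-led barcodes, and at 11.1 in Rnd2-led ones. The CR-like and layer 5-like intervals overlap.

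Kitl had 100.2 CPM in the layer 6 corticothalamic-like cluster (interval 93.7 to 107) and 55.5 in the subplate-like cluster. The Neurod1-led, layer 5-like and Snhg11-led clusters, at 25.5, 22.6 and 21.7 CPM, did not differ beyond their intervals. Rnd2-led barcodes had 8.99 CPM and CR-like barcodes 4.92.

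Hs3st4 differed less between layer 6 corticothalamic-like and subplate-like barcodes, at 169.7 CPM (interval 161 to 179) and 149 (interval 138 to 161). It stood at 65.9 in layer 5-like, 36.1 in Snhg11-led, 27.2 in Neurod1-led, 11.4 in Rnd2-led and 10.3 in CR-like barcodes. The last pair overlapped, as did the Snhg11-led and Neurod1-led pair.

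Foxp2 itself had a higher level in the Snhg11-led cluster, at 48.1 CPM (interval 39.9 to 57.6), than in the layer 6 corticothalamic-like one, at 33.03 (interval 29.3 to 37.1). Its detection after thinning went the other way. Foxp2 was found in 10.97% of Snhg11-led barcodes (interval 6.52 to 16.98%) and 23.44% of layer 6 corticothalamic-like ones (interval 20.16 to 26.96%). The highest thinned count was 15 UMIs in the Snhg11-led cluster and 5 in the layer 6 corticothalamic-like one.

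Crym was highest in the Neurod1-led cluster of 103 barcodes, at 513 CPM (interval 481 to 547). It had 349.9 CPM in layer 6 corticothalamic-like, 289 in layer 5-like and 119 in Rnd2-led barcodes. Subplate-like barcodes had 65.8 CPM, so that the cluster next to highest for Akap7, Kitl and Hs3st4 was low in Crym. Snhg11-led and CR-like barcodes, at 34.9 and 29.7 CPM, did not differ beyond their intervals.

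**Figure D1:**
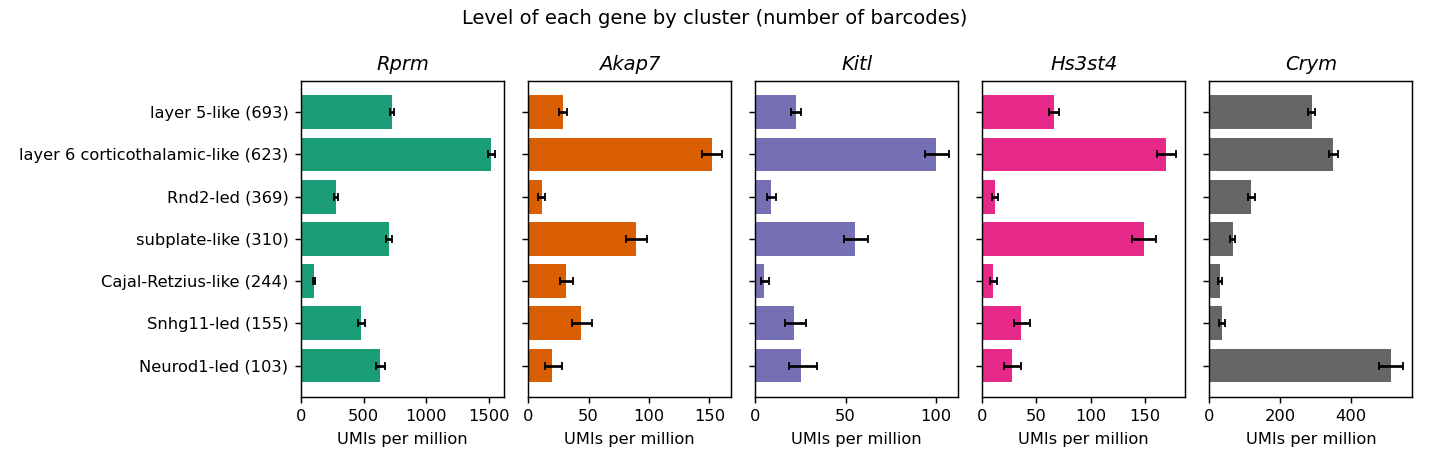
Level of each gene (CPM, horizontal axis from 0) in the 7 clusters of at least 50 barcodes, with bars for the summed level and lines for the exact Poisson interval. Akap7, Kitl and Hs3st4 are highest in the layer 6 corticothalamic-like cluster and next highest in the subplate-like one, whereas Crym is highest in the Neurod1-led cluster at 513 CPM and low in the subplate-like one at 65.8 CPM.

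The CR-like cluster served as the comparison for background UMIs, since free RNA gives UMIs in cells that do not express a gene. It held 244 barcodes, and all 9 fixed CR markers were past 2-fold in it. Its level, as a share of the layer 6 corticothalamic-like level, was 6.73% for Rprm (interval 6.10 to 7.40%), 4.90% for Kitl (3.02 to 7.54%) and 6.07% for Hs3st4 (4.39 to 8.19%). For Akap7 it was 20.5% (interval 17.0 to 24.5%), above the intervals of Rprm, Kitl and Hs3st4. Akap7 was also higher in CR-like than in Rnd2-led barcodes beyond the intervals. The part of free RNA in these levels was not tested.

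Detection of the members followed their levels. With median depths of 13370 UMIs in layer 6 corticothalamic-like and 17470 in CR-like barcodes before thinning, Kitl was found in 55.5% and 5.33% of them, Hs3st4 in 78.7% and 9.84%, Akap7 in 72.4% and 20.5%, and Crym in 68.2% and 24.2%. Rprm was found in 98.7% and in 61.1%. A single Rprm UMI therefore did not separate the clusters, whereas the level did, with a median of 15 thinned UMIs per barcode against 1.

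Over all 2513 barcodes Rprm had 745.0 CPM (interval 737 to 754), with a lowest, median and highest thinned count of 0, 5 and 61 UMIs per barcode. Kitl had 40.0 CPM, with a lowest and median count of 0 and a highest of 8. Akap7 had 61.5 CPM and a highest count of 10, and Hs3st4 had 80.9 CPM and a highest count of 9, both with a median of 0. Crym had 216 CPM with a lowest, median and highest count of 0, 1 and 26. The 10% of barcodes with the most UMIs of a gene held 50.3% of them for Crym, 60.7% for Kitl and 31.6% for Rprm. No single barcode held over 0.663% of a member's UMIs.

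The levels were then compared between barcodes high and low in each of the 4 level genes. A high class held the barcodes at or above the lowest thinned count that no more than 20% reached, and a low class those with 0. This gave 260 Foxp2-high barcodes (at least 1 UMI) and 2253 Foxp2-low ones. There were 411 Fezf2-high (at least 7 UMIs) and 602 Fezf2-low barcodes, 469 Nr4a2-high (at least 2) and 1587 Nr4a2-low, and 385 Reln-high (at least 3) and 1132 Reln-low. A gene was counted as different at a 2-fold ratio, and the background is the share of the 10713 genes with at least 100 UMIs past that ratio.

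Over all barcodes used, Rprm, Akap7, Kitl and Hs3st4 were higher and Crym was lower in Foxp2-high than in Foxp2-low barcodes. Rprm had 1202 CPM against 698 (log2 ratio 0.78, interval 0.74 to 0.83). Akap7 had 107 against 56.8 (0.91, interval 0.75 to 1.07), Kitl 68.0 against 37.1 (0.87, interval 0.67 to 1.07) and Hs3st4 145 against 74.3 (0.97, interval 0.83 to 1.10). Crym had 150.1 CPM against 222 (-0.57, interval -0.69 to -0.44), a ratio that was nearer 0 with an upper limit of 20000 UMIs (-0.27, interval -0.40 to -0.14), another thinning seed (-0.28) and classes at full depth (-0.25). The intervals of the 4 higher genes overlapped, and that of Crym lay apart from them on the other side of 0.

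No member passed 2-fold with Foxp2. Among all genes tested 0.467% were at least 2-fold higher and 2.69% at least 2-fold lower, and the median log2 ratio was 0.87 for the members and -0.03 for all genes. Hs3st4, at 1.95-fold, was just under the limit. A stricter high class of at most 10% of barcodes meant at least 2 Foxp2 UMIs, which few barcodes had. It held 52 barcodes with 2 to 3 UMIs, 9 with 4 to 7 and 2 with 8 or more. With this small class 2 members were at least 2-fold higher and 1 at least 2-fold lower, where 2.19% of all genes were higher and 6.39% lower. Foxp2-high barcodes were shallower, with a median of 13220 UMIs against 15219, and held less of the CR markers, all 9 of which were at least 2-fold lower. The summed CR marker level was 232 CPM against 705, with a median of 1 thinned UMI in both classes, none of the markers was at 0, and the part of either in these ratios was not tested. The 4 erythroid markers were also lower, at 47.8 CPM against 498, but the haemoglobin-rich barcode held 91.0% of the Foxp2-low UMIs, and without it all ratios stayed within their intervals.

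In steps of Foxp2 count, Rprm stood at 698 CPM with 0 UMIs, 1135 with 1 and 1515 with 2 to 3 UMIs (52 barcodes). Hs3st4 stood at 74.3, 136 and 172 CPM, and Kitl at 37.1, 66.7 and 85.0. Crym went the other way, at 222, 167 and 112 CPM. Akap7 stood at 56.8, 112 and 87.9 CPM, and the last pair of intervals overlapped. Above 3 UMIs there were 11 barcodes and no order was read.

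**Figure D2:**
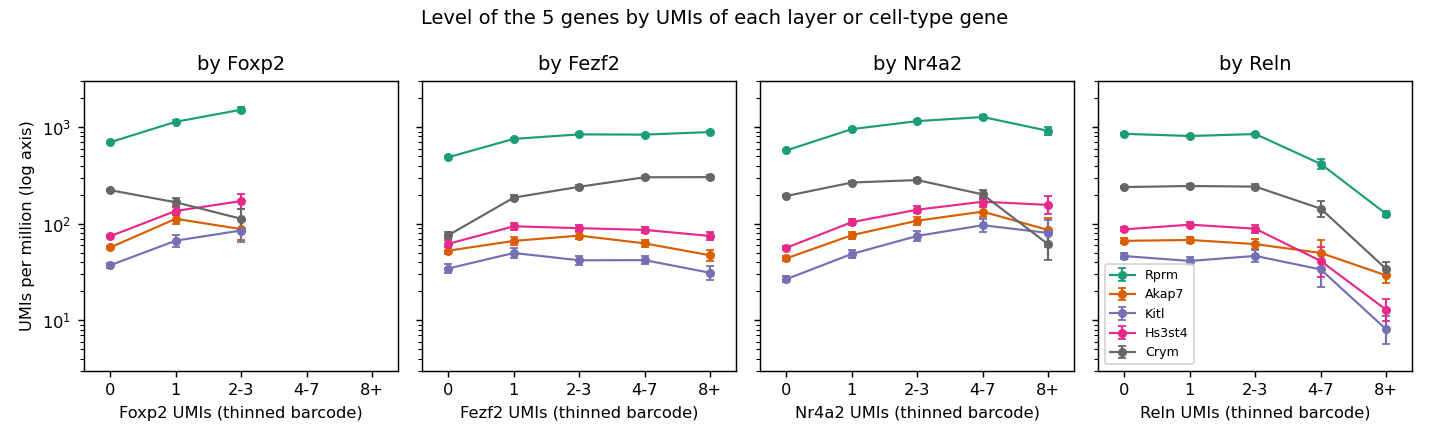
Level of the 5 genes (CPM, log axis, with exact Poisson intervals) against the thinned UMI count of Foxp2, Fezf2, Nr4a2 and Reln, in bins of at least 20 barcodes. Crym goes from 222 to 112 CPM along Foxp2 while Rprm goes from 698 to 1515, and every gene is lowest at 8 or more Reln UMIs.

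With Fezf2 the order of the members changed, and Crym showed the largest ratio of the 5. Crym had 305 CPM in Fezf2-high and 76.0 in Fezf2-low barcodes (log2 ratio 2.01, interval 1.88 to 2.13). Rprm had 893 against 488 CPM (0.87, interval 0.82 to 0.93). Hs3st4 had 75.04 against 61.9 (0.28, interval 0.10 to 0.45), whereas for Akap7, at 48.9 against 52.5, and Kitl, at 35.4 against 34.4, the intervals held 0 (-0.31 to 0.10 and -0.21 to 0.29).

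Crym was the 1 member past 2-fold with Fezf2, where 2.01% of all genes were at least 2-fold higher and 9.69% at least 2-fold lower. A ratio as high as that of Crym was reached by 24 of the 10713 genes, a description, since Crym was chosen from these same cells. Fezf2-low barcodes held most of the CR markers, with a summed level of 1833 CPM against 122 in Fezf2-high ones. Without the Reln-high class, an alternative chosen after seeing the data, the Crym ratio was 1.44 and that of Rprm 0.26. Akap7, Kitl and Hs3st4 were then lower in Fezf2-high barcodes, at -0.52, -0.61 and -0.33, with intervals below 0, so that the sign of Hs3st4 turned. Leaving out the haemoglobin-rich barcode, which was Fezf2-low, moved no ratio beyond its interval.

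Across Fezf2 counts of 0, 1, 2 to 3, 4 to 7 and 8 or more, Crym stood at 76.0, 186, 241, 303 and 304 CPM. Rprm stood at 488, 755, 841, 836 and 889.8 CPM over the same steps. Akap7 was highest in the middle, at 52.5, 66.3, 75.3, 62.6 and 47.1 CPM. Crym thus levelled off at 4 UMIs of Fezf2, and the middle value of Akap7 lay above both of its ends beyond their intervals.

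With Nr4a2, 4 of the 5 members were at least 2-fold higher, while 1.02% of all genes were at least 2-fold higher and 4.34% at least 2-fold lower. Like Rprm, Akap7, Kitl and Hs3st4, Nr4a2 was among the 10 leading genes of the layer 6 corticothalamic-like cluster. The members were chosen from these same cells, so this count and the rank of Kitl are a description. Kitl had 81.0 CPM in Nr4a2-high and 26.7 in Nr4a2-low barcodes (log2 ratio 1.60, interval 1.44 to 1.77), a ratio that 13 of 10713 genes reached. Hs3st4 had 149 against 56.4 (1.40, interval 1.28 to 1.52) and Akap7 113 against 43.7 (1.37, interval 1.23 to 1.501). Rprm had 1167 against 574 (1.02, interval 0.98 to 1.06), just past 2-fold. Its ratio was 0.84 without the Reln-high class and 0.97 with no upper limit on UMIs, both under 2-fold. Crym had 244 against 194 CPM (0.33, interval 0.25 to 0.41), and with no upper limit its interval held 0 (-0.0065 to 0.13).

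Nr4a2-high barcodes also had a lower depth, at a median of 13747 UMIs against 15471, and all 9 CR markers were at least 2-fold lower in them, at a summed 207 CPM against 873. Their part in the ratios was not tested. Without the Reln-high class Kitl, Akap7 and Hs3st4 kept ratios of 1.46, 1.35 and 1.21.

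The steps of Nr4a2 showed that Crym did not follow it in one direction. At 0, 1, 2 to 3, 4 to 7 and 8 or more UMIs, Crym stood at 194, 267, 283, 201 and 61.1 CPM. Kitl stood at 26.7, 48.6, 74.7, 96.4 and 80.2 CPM, and Hs3st4 at 56.4, 104, 139.7, 169 and 157. The last step held 38 barcodes. With the stricter high class the Crym ratio had the opposite sign, at -0.19.

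All members were lower in Reln-high barcodes, and 4 of the 5 were at least 2-fold lower. Rprm had 277 CPM against 853 (log2 ratio -1.62, interval -1.69 to -1.55), Hs3st4 28.4 against 87.4 (-1.62, interval -1.85 to -1.40), Kitl 15.8 against 46.2 (-1.55, interval -1.86 to -1.25) and Crym 94.6 against 239 (-1.34, interval -1.46 to -1.22). Akap7 had 36.9 against 66.4 (-0.85, interval -1.05 to -0.65), and its interval lay above those of the other members. Of all genes 4.39% were at least 2-fold lower and 6.6% at least 2-fold higher. With a high class of at most 10% of barcodes all 5 members were at least 2-fold lower, as were 8.57% of all genes.

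The difference came at high counts of Reln. From 0 to 2 to 3 Reln UMIs, Rprm stood at 853, 809 and 848 CPM and Crym at 239, 246 and 242. At 4 to 7 UMIs (49 barcodes) they stood at 415 and 143 CPM, and at 8 or more at 126 and 33.9. Kitl was 8.04 CPM at 8 or more Reln UMIs, Hs3st4 12.8 and Akap7 29.1. The Reln-high class was deeper than the low class, with medians of 17050 and 14812.5 UMIs.

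Classes of Foxp2 and Nr4a2 were then crossed. With both low, Kitl stood at 24.9 CPM. It stood at 48.2 with Foxp2 alone high, at 77.8 with Nr4a2 alone high and at 104 (interval 83.7 to 129) with both high. Rprm stood at 531, 1081, 1124 and 1476 CPM in the same order, Akap7 at 40.7, 79.6, 106 and 161, and Hs3st4 at 50.3, 129, 145 and 179. Rprm, Akap7, Kitl and Hs3st4 were thus highest where both were high (62 barcodes). For Rprm and Akap7 the interval there lay above that with Nr4a2 alone high (135 to 191 against 98.0 to 115 for Akap7). For Kitl and Hs3st4 it overlapped that with Nr4a2 alone high (70.8 to 85.2 for Kitl, and 151 to 210 against 135 to 155 for Hs3st4). Crym stood at 200.5, 113, 252 and 185 CPM, lowest where Foxp2 alone was high. When Foxp2 was crossed with Fezf2, the direction of Crym was not the same throughout. Among Fezf2-low barcodes Crym was higher with Foxp2 high, at 121 CPM (interval 98.8 to 147) against 71.7 (interval 66.2 to 77.5). It was lower with Foxp2 high among Fezf2-middle barcodes, at 140 against 261 CPM, and among Fezf2-high ones, at 242 against 311.

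The comparisons were repeated inside the layer 6 corticothalamic-like cluster, an alternative chosen after seeing the data, and the ratios of Rprm, Akap7, Kitl and Hs3st4 by Foxp2 and Nr4a2 were then smaller. For Foxp2 (146 high and 477 low barcodes) the log2 ratio was 0.20 for Rprm (interval 0.14 to 0.26) and 0.27 for Hs3st4 (interval 0.09 to 0.44). For Akap7 and Kitl it was 0.12 and 0.10, and both intervals held 0. For Nr4a2 (241 and 229 barcodes) it was 0.48 for Kitl (interval 0.25 to 0.70), 0.33 for Akap7 (interval 0.15 to 0.51), 0.09 for Rprm and 0.03 for Hs3st4, whose interval held 0.

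Crym was the exception. Within the cluster it had 197 CPM in Foxp2-high and 393 in Foxp2-low barcodes (log2 ratio -0.996, interval -1.16 to -0.84), a larger difference than over all barcodes. With Nr4a2 it had 303 against 362 (-0.26, interval -0.38 to -0.14), the opposite sign to that over all barcodes. With Fezf2 it had 403 against 287 (0.49, interval 0.28 to 0.71), while Akap7, Kitl and Hs3st4 were lower in Fezf2-high barcodes, at -0.66, -0.62 and -0.44. The within-cluster Crym ratio by Foxp2 was recomputed, beside ratios between members, under alternatives chosen after seeing the data. Of these 16 values, 12 stayed within the main interval, 3 were higher and 1 was lower. Those of the Crym ratio by Foxp2 alone are not given here. Over all barcodes that ratio moved with the thinning seed.

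In the layer 5-like cluster Crym was again lower with Foxp2, at 162 against 299 CPM (log2 ratio -0.88, interval -1.15 to -0.63, 55 high barcodes). Hs3st4 was higher there, at 102 against 63.1 CPM (0.70, interval 0.35 to 1.03). By Nr4a2, Crym was higher in the layer 5-like cluster (0.52, interval 0.39 to 0.66). In the subplate-like cluster it was lower, with 32.99 CPM in Nr4a2-high and 91.1 in Nr4a2-low barcodes (-1.47, interval -1.92 to -1.03). Kitl had 70.6 CPM against 46.0 in the same classes (0.62, interval 0.22 to 1.02). The ratio of Crym by Foxp2 in the subplate-like cluster was -0.53, with an interval that held 0 (-1.36 to 0.19).

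**Figure D3:**
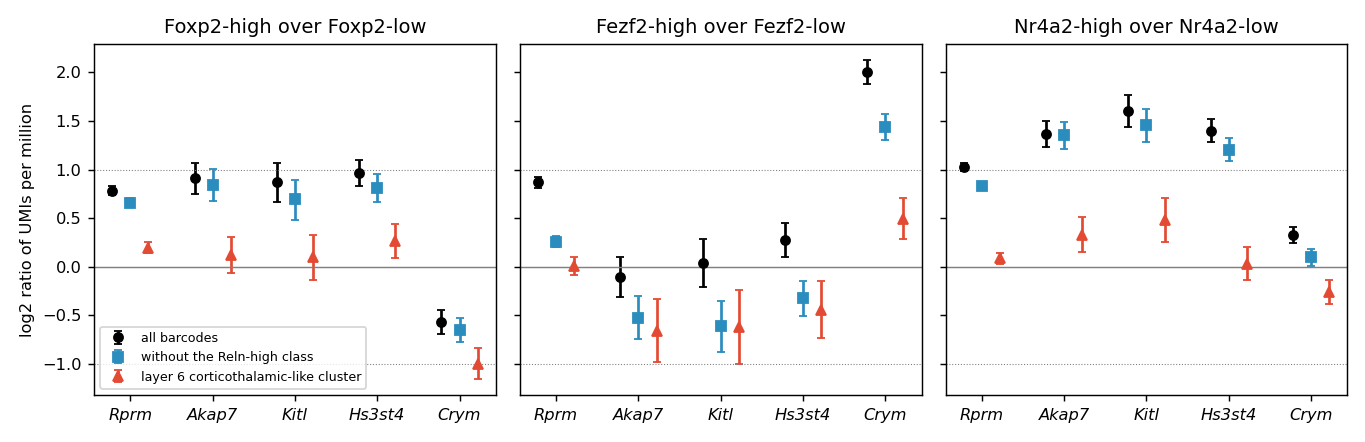
Log2 ratio of the level in high over low barcodes for Foxp2, Fezf2 and Nr4a2, with exact conditional intervals, over all barcodes (circles), without the Reln-high class (squares) and in the layer 6 corticothalamic-like cluster (triangles). The dotted lines mark 2-fold. Rprm, Akap7, Kitl and Hs3st4 lie between 0.78 and 0.97 for Foxp2 over all barcodes and between 0.10 and 0.27 within the cluster, whereas Crym goes from -0.57 to -0.996. The Crym value over all barcodes was nearer 0 with another thinning seed.

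Members were also set against each other, with classes made in the same way except that Rprm-low barcodes held 0 or 1 UMI. Over all barcodes each of Rprm, Akap7, Kitl and Hs3st4 was at least 2-fold higher in the high class of each of the others, in part by the way they were chosen. Of all genes, 3.25% were at least 2-fold higher by Rprm, 1.47% by Akap7, 1.33% by Kitl and 2.35% by Hs3st4. In Hs3st4-high barcodes Kitl had 87.8 CPM against 21.5 in Hs3st4-low ones (log2 ratio 2.03, interval 1.83 to 2.23), and in Akap7-high barcodes it had 94.3 against 24.4 (1.95, interval 1.78 to 2.12). Crym-high barcodes had 1082 CPM of Rprm against 578 (0.90) and 90.3 of Akap7 against 46.0 (0.97). They had 76.8 CPM of Hs3st4 against 75.4, with an interval that held 0 (-0.12 to 0.17). The ratio of Crym between Hs3st4-high and Hs3st4-low barcodes was -0.18 (interval -0.30 to -0.07), and it turned positive with another thinning seed, so no direction is read from it.

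Within the layer 6 corticothalamic-like cluster Crym and Hs3st4 were opposed. Crym had 201 CPM in Hs3st4-high and 413 in Hs3st4-low barcodes (log2 ratio -1.04, interval -1.21 to -0.87, 176 and 133 barcodes). In turn, Hs3st4 had 124 CPM in Crym-high and 202 in Crym-low barcodes (-0.71, interval -0.91 to -0.51). Akap7 went with Crym, at 186 against 104 CPM (0.83, interval 0.62 to 1.05), and was lower in Hs3st4-high barcodes (-0.27, interval -0.49 to -0.05). Kitl was higher with Hs3st4 (0.30, interval 0.02 to 0.59) and did not differ by Crym beyond its interval (-0.11, interval -0.37 to 0.16). With other classes or clusters, chosen after seeing the data, the ratio of Crym by Hs3st4 ran from -1.23 to -0.46 and that of Akap7 by Crym from 0.80 to 0.92.

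**Figure D4:**
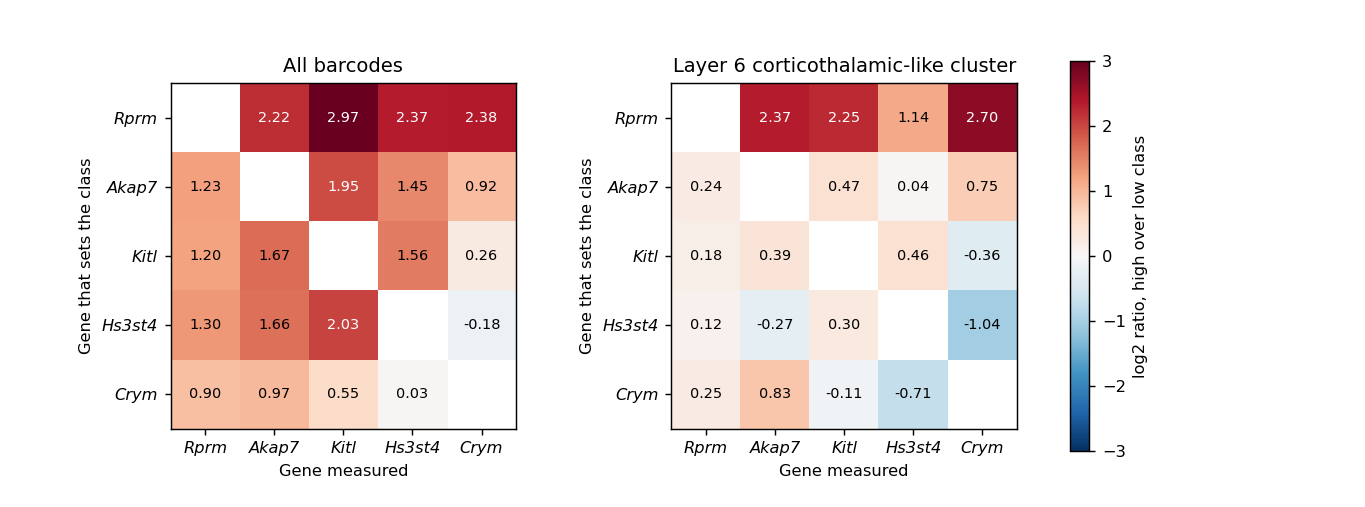
Log2 ratio of the gene in each column between barcodes high and low in the gene of each row, over all barcodes (left) and within the layer 6 corticothalamic-like cluster (right). Within the cluster Crym is -1.04 by Hs3st4 and 0.75 by Akap7, and the Rprm row rests on 13 Rprm-low barcodes.

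Rprm-high barcodes divided by Crym in the same way. Of 454 Rprm-high barcodes 32.8% were Crym-low and 27.1% Crym-high. The Crym-low ones held 27.5% Foxp2-high barcodes, against 9.76% of the Crym-high ones, and Foxp2 stood at 42.8 and 15.99 CPM. Akap7 stood at 96.2 CPM in the Crym-low and 185 in the Crym-high ones, Hs3st4 at 185 and 118, and Kitl at 83.1 and 82.1. Nr4a2-high shares were alike in size, at 34.9% and 36.6%.

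At equal depth 48.0% of barcodes held at least 3 of the 5 members (interval 46.0 to 49.9%), 173 held all 5 (6.88%) and 125 held none (4.97%). At full depth 58.4% held at least 3. The share was 65.0% in Foxp2-high and 46.0% in Foxp2-low barcodes, and 78.3% in Nr4a2-high, 59.1% in Nr4a2-middle and 35.8% in Nr4a2-low ones. It was 50.4% in Fezf2-high, 53.2% in Fezf2-middle and 33.2% in Fezf2-low barcodes. Reln-high barcodes had 19.2%, against 52.7% of Reln-low ones. By cluster it was 89.2% in layer 6 corticothalamic-like, 67.7% in subplate-like, 45.3% in layer 5-like, 8.40% in Rnd2-led and 6.56% in CR-like barcodes.

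**Figure D5:**
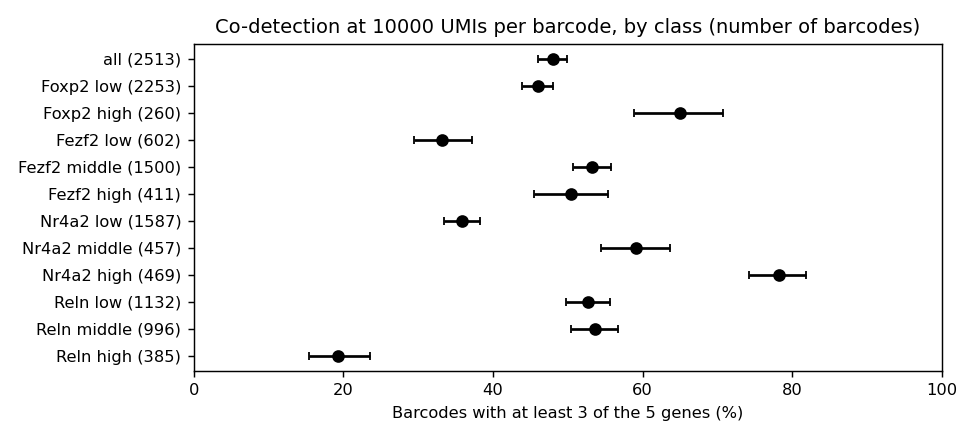
Share of barcodes with at least 3 of the 5 genes after thinning to 10000 UMIs (horizontal axis, percent), with exact Clopper-Pearson intervals, for all barcodes and for each class of the 4 level genes. The Nr4a2-high class is highest at 78.3% and the Reln-high class lowest at 19.2%.

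By pairs, 56.9% of the 673 barcodes with Kitl also had Akap7 (interval 53.1 to 60.7%), against 29.3% of those without Kitl. Hs3st4 was found in 66.3% of barcodes with Kitl and 36.4% of those without, and in 63.1% of barcodes with Akap7 and 33.5% of those without. Differences with Crym were smaller for these genes. Crym was found in 58.7% of barcodes with Kitl and 49.4% of those without, and in 56.9% of barcodes with Hs3st4 and 47.9% of those without. Rprm, present in 90.01% of barcodes, was found in 96.4% of those with Kitl and 87.7% of those without. In all 10 pairs the second gene was found more often with the first than without it. That direction was partly set by the choice of the members. The share among other gene pairs was not computed, so nothing particular to the members is read from the count. The pairs were read over all clusters together. Crym and Hs3st4 count as such a pair, although their levels were opposed within the corticothalamic-like cluster, as given above.

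The genes most alike in pattern were ranked by Pearson correlation over 2513 barcodes of 1 library, among 10146 genes. Correlations of sparse counts are low and depend on depth and level, so they are a description. Sybu, which encodes a linker of vesicles to kinesin, was the nearest to Hs3st4 (r = 0.55) and Akap7 (r = 0.41), and the transcription factor gene Mef2c was the nearest to Kitl (r = 0.42) and among the 5 nearest to Rprm (r = 0.51) and Hs3st4 (r = 0.50). Rprm had the cell adhesion gene Cadm1 (r = 0.52), followed by Mef2c, B3gat1, Zfos1 and Sybu. Akap7 had Sybu, Zfos1, Rprm, Lmo3 and Kitl. Kitl had Mef2c, Sybu, Hs3st4, Akap7 and Rprm. Hs3st4 had Sybu, Mef2c, Camkv, Rprm and Nfe2l3. Crym had Opcml (r = 0.40), Rprm (0.37), the thyroid hormone receptor gene Thra (0.36), Cadm1 and Syndig1. The correlation of Crym with Hs3st4 was 0.07.

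Other layer 6 genes were read beside the members from a list of 12. With Nr4a2, 2 of 12 were at least 2-fold higher, Ntsr1 (log2 ratio 1.78) and Tle4 (1.27, named after its value was seen), and the list median was 0.57. With Foxp2, 1 of the 11 other genes passed, Ntsr1, which encodes a neurotensin receptor of corticothalamic cells, at 30.8 against 12.2 CPM (1.34). Syt6 had a ratio of 0.79 by Foxp2, and Nfia and Nfib, broad neuronal factors, had 0.18 and 0.11. With Reln, 6 of 12 were at least 2-fold lower, and with Fezf2, 4 of 12 at least 2-fold higher.

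The receptor of the Kitl product was present at a low level. Kit had 22.4 CPM and was found in 18.8% of barcodes, with a log2 ratio of -0.02 by Foxp2, 0.17 by Nr4a2 and 0.71 by Reln. No ratio of Kit passed 2-fold, unlike Kitl by Nr4a2 and Reln.

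Of 13 other heparan sulfate enzymes with at least 100 UMIs, none was past 2-fold with Foxp2, and the list median was 0.04. With Nr4a2, 2 were at least 2-fold higher, Hs3st5 (log2 ratio 1.18) and Hs3st2 (1.51, named after its value was seen). Both encode 3-O-sulfotransferases, as does Hs3st1, which had a ratio of -0.70 (also named after its value was seen). Ndst4, an N-sulfotransferase, was lower (-2.79) and was higher in Reln-high barcodes (3.71). Ext2 and Hs2st1, which act in chain extension and 2-O-sulfation, had 0.13 and 0.11 by Nr4a2.

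Among 14 genes of protein kinase A and its anchors none was past 2-fold with Nr4a2, where Akap7 was. The regulatory subunit gene Prkar1a, at 279 CPM, had a log2 ratio of -0.01 by Nr4a2, and the anchor gene Akap9, at 175 CPM, had 0.42. With Foxp2 Akap13 was lower (-1.40) and Akap10 had 0.63.

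None of 7 Reprimo-related and p53 target genes was past 2-fold with Foxp2 or Nr4a2, and the list medians were -0.38 and -0.26. Rprml, the Reprimo-like gene, had 24.4 CPM, with a log2 ratio of -0.55 by Foxp2 and 0.86 by Nr4a2. Trp53 had -0.38 and Bax -0.19 by Foxp2. Cdkn1a, an inhibitor of cyclin-dependent kinases, was higher in Reln-high barcodes (3.38), where Rprm was lower.

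Of 12 genes of thyroid hormone handling, 5 had at least 100 UMIs. Thra had 991 CPM and was found in 99.8% of barcodes, with a log2 ratio of 0.48 by Fezf2. Klf9, a thyroid hormone-responsive factor gene, was past 2-fold with Nr4a2 (1.24) and had 0.42 by Foxp2.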

How the data were processed

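Single-cell RNA of sorted Ebf2-EGFP positive cells was measured by the authors with the 10x Genomics Chromium system. What the authors deposited are raw UMI counts, a whole number for each gene in each of 3000 barcodes. Per the labels, Cell Ranger 2.0.0, Seurat 2.0 and the build mm10 were used.

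The 5 members, the gene lists and the comparisons were chosen with earlier results of these data known. Named genes were the members, the 4 level genes, the 5 genes most correlated with each member, and from each list the 2 with the highest level and the 2 with the largest ratio by Foxp2 level. A gene that this rule names is not reported here.

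Python 3.11.15, scipy 1.17.1, scanpy 1.11.5, numpy 2.4.6 and scikit-learn 1.9.0 were used. Levels have exact Poisson, ratios exact conditional binomial and shares exact Clopper-Pearson intervals, which leave out the spread between animals. A gene at 0 UMIs in a class was set to 3. Clusters came from K-means (8 clusters) on 20 principal components of the 2000 most variable genes. A name needed at least 3 fixed markers with at least 10 UMIs and a 2-fold excess, and 1 of them among the 10 leading genes, a choice made with the data in view, so names can differ from those of the study. Doublets were treated by the limit of 25000 UMIs, and the automatic Scrublet threshold called 2 barcodes. Correlations used log values of counts per 10000 in genes found in at least 5% of barcodes. Ratios were run on simulated counts drawn with counting error only. Those counts had no spread between cells, so they do not show how the intervals behave in these data. Of 27998 identifiers, 27645 were found in the GENCODE annotation. Alternatives covered the UMI limit, thinning, class limits, scaling, doublets and clustering, and 4 more were added after seeing the data.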

Additional observations from a re-analysis of the deposited data

Results flagged for a closer look

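The 487 barcodes above 25000 UMIs entered no comparison, and each member had a signal there. Rprm had 544 CPM in them (against 745.0 in the barcodes used), Akap7 40.8 (61.5), Kitl 37.2 (40.0), Hs3st4 64.6 (80.9) and Crym 347 (216). Rprm, Akap7 and Hs3st4 were thus lower and Crym higher above the limit, and the intervals of Kitl overlapped (34.4 to 40.1 and 38.1 to 42.1). Reln stood at 869.6 CPM above the limit and 317 in the barcodes used. The part of depth, of doublets and of the CR share in these values was not tested. Gm27040, antisense to Hs3st4, had 188 UMIs in the barcodes used and entered no comparison.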

How the results depend on the processing

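The counts of members past 2-fold and the share with at least 3 members were recomputed under each alternative. With a high class of at most 10% (at least 2 UMIs for Foxp2), Foxp2 gave 2 members at least 2-fold higher and 1 at least 2-fold lower, in place of 0 and 0. The Crym ratio by Nr4a2 was -0.19 with that class limit. With no upper limit on UMIs, and without the Reln-high class, Nr4a2 gave 3 members at least 2-fold higher in place of 4. The share of all genes past 2-fold is given above for the stricter Foxp2 class. It was not computed with no upper limit on UMIs, without the Reln-high class or within the layer 6 corticothalamic-like cluster alone. Counts of members there have no background, and nothing particular to the members is read from them. The Crym ratio by Nr4a2 was 0.06 with no upper limit, and that by Foxp2 ran from -1.21 (high class of at most 10%) to -0.25 (classes at full depth) over all alternatives. The share with at least 3 members was 58.4% at full depth and 29.8% after thinning to 5000 UMIs. Within the layer 6 corticothalamic-like cluster alone, the members at least 2-fold higher numbered 0 for Fezf2 and 0 for Nr4a2, the Hs3st4 ratio by Fezf2 was -0.44 and the Crym ratio by Nr4a2 was -0.26. The Hs3st4 ratio by Fezf2 was also negative with classes at full depth (-0.084) and without the Reln-high class (-0.33). The Crym ratio by Hs3st4 was positive under an upper limit of 20000 UMIs (0.075), with another thinning seed (0.069) and with classes at full depth (0.33). The cause of these changes was not tested.

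Of 200 values of ratios by level gene, 154 stayed within the main interval, 20 were higher, 24 lower and 2 reversed. Of 70 pair differences 60 stayed within it and 1 was higher and 9 lower. Of 20 cluster ratios 10 stayed, and with 8 lower and 2 higher. Rprm, Akap7, Kitl and Hs3st4 were highest in the layer 6 corticothalamic-like cluster under each clustering tried, and Crym in the Neurod1-led one, except that the Leiden clusters put it highest in a Crym-led cluster of 133 barcodes. Without each member's top barcode, or without the haemoglobin-rich barcode, none of the recomputed values left its interval.

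No paired analysis was possible because the 8 labelled samples share 1 matrix with no map from barcodes to samples. For the same reason no replicate was left out. Foxp2 classes rest on few UMIs (10.3% of barcodes hold 1 or more at equal depth), so its low class includes cells whose Foxp2 transcripts were missed.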
